A study of Mus musculus with 12 samples.

Results

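The genes described here are 31 genes with known roles in B cells, measured by RNA-seq in dendritic cells (DCs) sorted from mouse small intestine. The list was chosen from earlier results of these same counts, in which several such genes stood higher in 1 of the 4 sample groups, so that group's contrasts are given below as a description. The comparison of genotypes in the other subset is the only one that holds none of the samples that prompted the list. All 31 symbols matched 1 gene identifier each among 53801 in the count tables, and all 31 were among the 20580 genes that were tested. Of the 31, 20 are known mostly from B cells and 11 are known from myeloid cells as well.

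The 12 samples were labelled as CD103+CD11b- and CD103-CD11b+ DCs from wild-type (WT) mice and from mice with a conditional knockout (cKO) of Cbfb, with 3 samples per group. Cbfb encodes the partner protein that Runx transcription factors need to bind DNA well. In the cKO mice, floxed Cbfb was removed by Cre under the CD11c promoter, which is active in DCs, and which per the study also acted in part in gut CD4 T cells. DCs were sorted as CD45+CD64-CD11c+MHC-II+ cells after Peyer's patches had been taken out, and the samples of a group came from 3 mice. B220, a usual surface marker of B cells, is not named in that gate, and whether the WT mice carried Cre, and the age of the mice, are not given for the RNA-seq in the sources used here.

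B cells sense antigen with the B-cell receptor, a membrane immunoglobulin joined to the signalling chains Cd79a and Cd79b. The kinases Blk and Btk and the adaptors Blnk and Bank1 pass the signal on, while Cd22 and Cd72 hold it in check. Pax5 keeps the B-cell programme on and is a defining gene of the lineage. Conventional DCs arise from another branch of blood development, although some of these genes (Btk, Cd180, Pou2f2, Bach2 and Cd24a among them) are known from myeloid cells as well.

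Between 2161929 and 5863484 counts fell on genes in a sample. The DC markers followed the subset labels. In WT mice 7 of 8 markers of CD103+CD11b- DCs (cDC1), such as Xcr1 and Irf8, were lower in CD103-CD11b+ DCs, and 3 of 6 markers of the other branch (cDC2), Itgam, Cd209a and Mgl2, were higher. The general DC genes were present in every sample, with a summed level of 5 genes between 2035 and 3962 CPM, which is a gene's count scaled to a common library size. Cbfb counts overlapped between genotypes, with log2 fold changes of 0.17 (SE 0.19) and 0.14 (SE 0.19) in CD103+CD11b- and CD103-CD11b+ DCs, so it does not check the genotype labels. Samples also differed within groups. Summed T-cell genes were 61.5, 234 and 94.8 CPM in replicates 1, 2 and 3 of WT CD103-CD11b+ DCs and 234, 88.99 and 38.8 CPM in those of cKO, and replicate 1 of cKO CD103-CD11b+ DCs was the highest of the 12 samples for 16 of the 31 B-cell genes, against 5.56% of all tested genes.

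Levels are given as CPM after TMM normalization, as replicates 1, 2 and 3 in turn. A gene was called when the adjusted p of edgeR's quasi-likelihood test was under 0.05 and the fold change was over 1.3. A count of 0 allows a level of up to 3 counts, which is between 0.485 and 1.53 CPM depending on the sample. In such bulk samples, fewer cells of a type and less RNA per cell cannot be told apart.

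**Figure D1:**
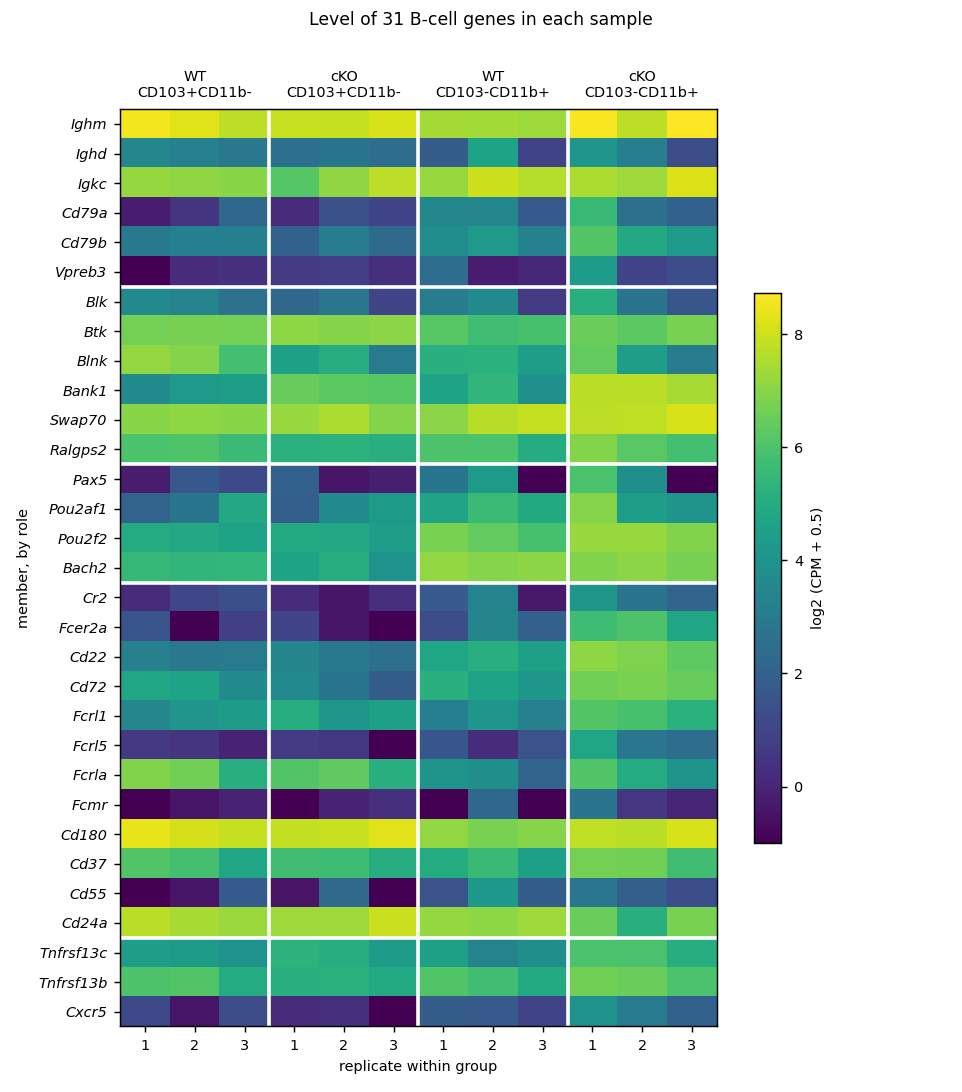
Level of the 31 genes (rows, grouped by role) in the 12 samples (columns, 3 replicates per group), as log2 of CPM plus 0.5. Bank1, Cd22, Cd72, Fcer2a and Fcrl1 are bright in all 3 cKO CD103-CD11b+ samples, whereas Pax5 is at its highest in replicate 1 of that group and at 0 in replicate 3.

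The 31 genes spanned a wide range of levels. Ighm and Igkc, which encode the constant parts of the IgM heavy chain and the kappa light chain, were present in every sample, at 84.8 or more CPM per kilobase of exon for Ighm and 135 or more for Igkc. Ighm was at 382, 304 and 215 CPM in WT CD103+CD11b- DCs and at 239, 235 and 281 CPM in cKO. In CD103-CD11b+ DCs it was at 174, 167 and 160.0 CPM in WT and at 403, 220.3 and 427 CPM in cKO. The cKO samples lay above the WT samples in CD103-CD11b+ DCs, and the genotypes overlapped in CD103+CD11b- DCs. Igkc was at 146, 138 and 129.8 CPM in WT CD103+CD11b- DCs, 71.9, 138 and 218 CPM in cKO CD103+CD11b- DCs, 149.6, 254 and 203 CPM in WT CD103-CD11b+ DCs and 187, 158 and 299 CPM in cKO CD103-CD11b+ DCs. Its genotypes overlapped in each subset. Igha and Jchain, which plasma cells express at very high levels, are not among the 31 and were added after their values were seen. They were also present in every sample, with Igha between 174 and 736 CPM and Jchain between 57.3 and 476 CPM. Some immunoglobulin genes have near-identical copies, so how reads were shared among such copies is uncertain.

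The receptor's signalling chains behaved in another way. Cd79a was at 10.8, 10.99 and 2.91 CPM in WT and 47.1, 5.47 and 3.57 CPM in cKO CD103-CD11b+ DCs, and at 0.342, 0.915 and 4.204 CPM in WT and 0.666, 2.197 and 1.56 CPM in cKO CD103+CD11b- DCs. Only replicate 1 of the cKO CD103-CD11b+ group stood clear of the WT samples, and replicates 2 and 3 lay below the WT mean of 8.22 ± 4.604 CPM (SD, n = 3). Cd79b was at 13.1, 18.99 and 9.31 CPM in WT and 69.8, 29.03 and 18.9 CPM in cKO CD103-CD11b+ DCs, and at 7.18, 8.69 and 8.73 CPM in WT and 3.55, 8.05 and 4.69 CPM in cKO CD103+CD11b- DCs. Here too replicate 1 led, and replicate 3 of the cKO group lay just under the highest WT sample. The remaining genes of this role had few counts. Ighd, the constant part of the IgD heavy chain, ranged from 1.45 to 24.3 CPM over the 12 samples, with its highest value in a WT sample, and Vpreb3, a chaperone of immunoglobulin chains, ranged from 0 to 19.8 CPM, with its highest value in replicate 1 of cKO CD103-CD11b+ DCs.

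Among the signalling genes, Bank1 had the plainest pattern. Bank1 encodes a scaffold that links the B-cell receptor to intracellular calcium release. It lies on the minus strand of chromosome 3 from 136053363 to 136326066 (GRCm38). In CD103-CD11b+ DCs it was at 24.7, 41.6 and 14.2 CPM in WT and at 213, 214 and 174 CPM in cKO, and the means were 26.9 ± 13.8 and 200.5 ± 22.6 CPM (SD, n = 3). In CD103+CD11b- DCs it was at 12.7, 18.99 and 21.3 CPM in WT and at 87.7, 76.9 and 73.1 CPM in cKO, and the means were 17.7 ± 4.495 and 79.2 ± 7.54 CPM (SD, n = 3). The genotypes did not overlap in either subset. Replicates within a group stayed close, except in WT CD103-CD11b+ DCs, where replicate 2 was over 2 times replicate 3.

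The other signalling genes moved less or unevenly. Btk, the kinase that B-cell receptor signalling depends on and that myeloid cells use too, was at 104, 106 and 104 CPM in WT and 136, 120.3 and 133 CPM in cKO CD103+CD11b- DCs, and at 72.8, 53.3 and 60.2 CPM in WT and 94.5, 77.1 and 108 CPM in cKO CD103-CD11b+ DCs. Its cKO samples were above the WT samples in each subset, by a small margin. Swap70, a guanine nucleotide exchange factor that acts on the cell's actin, was at 128, 137 and 129 CPM in WT and 149.6, 186 and 123 CPM in cKO CD103+CD11b- DCs, and at 131, 208 and 233 CPM in WT and 216, 221 and 286 CPM in cKO CD103-CD11b+ DCs. Ralgps2, an exchange factor of the small GTPase Ral, was at 62.6, 65.4 and 49.8 CPM in WT and 37.1, 38.6 and 35.2 CPM in cKO CD103+CD11b- DCs, and at 65.2, 62.97 and 32.3 CPM in WT and 123, 75.7 and 56.1 CPM in cKO CD103-CD11b+ DCs. Ralgps2 was lower in all 3 cKO samples of the first subset and overlapped in the second. The kinase Blk ranged from 1.16 to 34.1 CPM over the 12 samples, with its highest value in replicate 1 of cKO CD103-CD11b+ DCs, and the adaptor Blnk from 7.82 to 143 CPM, with its highest value in replicate 1 of WT CD103+CD11b- DCs.

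**Figure D2:**
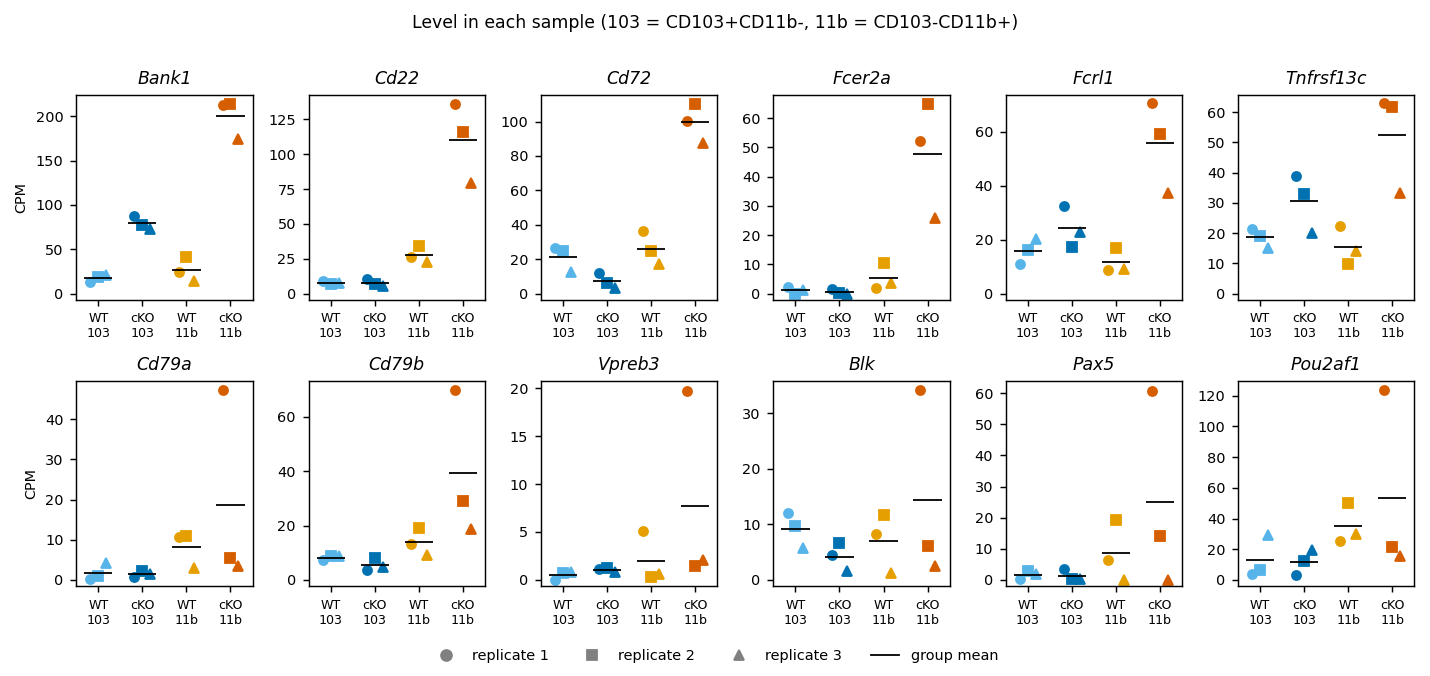
Level (CPM, linear axis from 0) of 12 of the genes in each sample, with 1 point per sample, its shape giving the replicate, and a line at each group mean. In the upper row all 3 cKO CD103-CD11b+ samples lie above the WT samples of that subset, and in the lower row replicate 1 lies far above replicates 2 and 3.

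The transcription factors split the same way. Pax5 falls outside the rule for genes given sample by sample and was added after its values were seen. It was at 6.46, 19.3 and 0 CPM in WT and 60.8, 14.04 and 0 CPM in cKO CD103-CD11b+ DCs, and at 0.342, 2.75 and 1.78 CPM in WT and 3.55, 0.244 and 0.391 CPM in cKO CD103+CD11b- DCs. Replicate 3 of cKO CD103-CD11b+ DCs held no Pax5 count, which allows up to 1.53 CPM, and replicate 3 of WT CD103-CD11b+ DCs held none either. Pou2af1, the coactivator of octamer-binding factors in B cells, ranged from 3.33 to 123 CPM, with its highest value in the same replicate 1. Pou2f2, an octamer-binding factor, was at 31.5, 29.1 and 24.7 CPM in WT and 30.4, 28.8 and 21.5 CPM in cKO CD103+CD11b- DCs, and at 109, 82.96 and 59.3 CPM in WT and 149.7, 150.1 and 118 CPM in cKO CD103-CD11b+ DCs. Its 3 cKO CD103-CD11b+ samples were near each other and above the other 9 samples. Bach2, a repressor that holds back plasma cell differentiation, was at 44.5, 42.3 and 43.6 CPM in WT and 24.4, 33.2 and 15.2 CPM in cKO CD103+CD11b- DCs, and at 142, 126 and 131 CPM in WT and 118, 132 and 107 CPM in cKO CD103-CD11b+ DCs. It followed the subset, and it was lower in all 3 cKO than in all 3 WT samples of CD103+CD11b- DCs.

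The coreceptors and inhibitory receptors, the role with the most genes, held most of the genes that were high in every cKO CD103-CD11b+ sample. Cd22, a sialic acid-binding receptor that dampens B-cell receptor signalling, was at 26.2, 34.3 and 22.4 CPM in WT and 136, 116 and 79.04 CPM in cKO CD103-CD11b+ DCs, and at 8.89, 6.86 and 7.76 CPM in WT and 10.4, 7.08 and 5.47 CPM in cKO CD103+CD11b- DCs. The second subset showed no separation of the genotypes. Cd72, an inhibitory lectin-like receptor, was at 36.2, 24.6 and 17.4 CPM in WT and 100.6, 110.2 and 87.7 CPM in cKO CD103-CD11b+ DCs, and at 26.3, 24.7 and 12.6 CPM in WT and 11.8, 6.35 and 3.13 CPM in cKO CD103+CD11b- DCs. Cd72 was thus higher without overlap in cKO of the first subset and lower without overlap in cKO of the second. Exons of Cd72 share 1423 bases with exons of Tesk1 on the other strand, and counting did not use strand. Tesk1, added for this overlap after its values were seen, was between 24.5 and 37.6 CPM in all 12 samples.

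Fcer2a (CD23), the low-affinity IgE receptor, was at 1.96, 10.3 and 3.49 CPM in WT and 52.1, 64.7 and 26.01 CPM in cKO CD103-CD11b+ DCs, and at 2.39, 0 and 1.29 CPM in WT and 1.55, 0.244 and 0 CPM in cKO CD103+CD11b- DCs. It was thus near the floor in the second subset and clearly present in all 3 cKO samples of the first. Fcrl1, an Fc receptor-like coreceptor, was at 8.61, 16.99 and 9.02 CPM in WT and 70.5, 59.01 and 37.2 CPM in cKO CD103-CD11b+ DCs, and at 10.9, 16.2 and 20.1 CPM in WT and 32.6, 17.3 and 22.7 CPM in cKO CD103+CD11b- DCs. The genotypes of CD103+CD11b- DCs overlapped. Fcrl5 was less even, at 2.54, 0.666 and 2.33 CPM in WT and 26.5, 6.66 and 5.099 CPM in cKO CD103-CD11b+ DCs, and at 1.03, 0.915 and 0.485 CPM in WT and 1.11, 0.976 and 0 CPM in cKO CD103+CD11b- DCs. Cr2 (CD21), a complement receptor, was at 2.94, 9.66 and 0.291 CPM in WT and 17.3, 6.19 and 4.08 CPM in cKO CD103-CD11b+ DCs, and at 0.684, 1.602 and 2.102 CPM in WT and 0.666, 0.244 and 0.782 CPM in cKO CD103+CD11b- DCs. Replicate 1 led for Fcrl5 and for Cr2, and 1 WT sample exceeded 2 of the 3 cKO samples for Cr2.

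Fcrla, an intracellular Fc receptor-like protein, was higher in the other subset in WT mice, while the subsets overlapped in cKO. It was at 118, 99.8 and 34.9 CPM in WT and 68.3, 81.3 and 33.6 CPM in cKO CD103+CD11b- DCs, and at 15.9, 13.99 and 4.07 CPM in WT and 68.5, 31.6 and 15.8 CPM in cKO CD103-CD11b+ DCs. Cd180, a relative of the Toll-like receptors that myeloid cells carry as well, was at 335, 276 and 233 CPM in WT and 231, 244 and 318 CPM in cKO CD103+CD11b- DCs, and at 144, 108 and 124 CPM in WT and 223, 212 and 283 CPM in cKO CD103-CD11b+ DCs. The WT CD103-CD11b+ samples were the lowest 3 of the 12 for Cd180. Cd24a, a small surface glycoprotein found on many cell types, was at 211, 174 and 154 CPM in WT and 156, 159 and 247 CPM in cKO CD103+CD11b- DCs, and at 147, 135 and 159 CPM in WT and 92.5, 35.9 and 109.6 CPM in cKO CD103-CD11b+ DCs. It was the only one of the 31 genes that was lower without overlap in cKO CD103-CD11b+ DCs. Cd37, a tetraspanin, ranged from 21.8 to 104 CPM over the 12 samples. Fcmr, the IgM Fc receptor, held 3 or fewer counts in 9 of the 12 samples and ranged from 0 to 6.29 CPM, and Cd55, a complement regulator, ranged from 0 to 17.7 CPM.

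Among the receptors for survival and homing, Tnfrsf13c (the BAFF receptor) was at 22.5, 9.66 and 13.96 CPM in WT and 63.1, 61.6 and 33.1 CPM in cKO CD103-CD11b+ DCs, and at 21.5, 19.2 and 15.2 CPM in WT and 38.8, 32.95 and 19.9 CPM in cKO CD103+CD11b- DCs. Its cKO samples lay above the WT samples in the first subset. Tnfrsf13b (TACI), which binds BAFF and APRIL, was at 67.7, 53.3 and 30.2 CPM in WT and 102, 89.7 and 62.2 CPM in cKO CD103-CD11b+ DCs, and at 64.3, 68.2 and 31.7 CPM in WT and 33.95, 36.6 and 30.9 CPM in cKO CD103+CD11b- DCs, with overlap in each subset. Cxcr5, the chemokine receptor that leads B cells into follicles, was at 3.13, 2.998 and 1.45 CPM in WT and 15.04, 7.38 and 3.57 CPM in cKO CD103-CD11b+ DCs, and at 1.71, 0.229 and 1.94 CPM in WT and 0.666, 0.732 and 0 CPM in cKO CD103+CD11b- DCs. The cKO samples were above the WT samples in CD103-CD11b+ DCs, with few counts behind each value.

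Per kilobase of exon, the genes can be set beside each other within cKO CD103-CD11b+ DCs. The mean level was 403 CPM per kilobase for Igkc and 186 for Ighm. Cd79b (27.4), Cd72 (29.1), Bank1 (26.8) and Cd22 (21.9) had levels per kilobase of similar size, above Fcer2a (15.4), Cd79a (12.8) and Pax5 (2.82). The exon length of Cd72 includes the 1423 bases shared with Tesk1, where reads without strand cannot be told apart. The level of Cd72 per kilobase is therefore uncertain. In WT CD103-CD11b+ DCs the same measure was 9.65 for Cd79b, 7.63 for Cd72, 5.48 for Cd22, 3.59 for Bank1 and 5.64 for Cd79a. The order of Bank1 and Cd79a on this scale thus differed between the genotypes. Replicate 1 carried part of the cKO means. Without it the mean per kilobase was 16.7 for Cd79b, 3.103 for Cd79a and 0.793 for Pax5, while it was 28.9 for Cd72, 25.9 for Bank1, 19.3 for Cd22 and 14.7 for Fcer2a.

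The contrast of cKO with WT in CD103-CD11b+ DCs is the one that prompted the list, so its calls are a description. Of the 31 genes, 27 had a positive log2 fold change, beside 44.8% of all tested genes, and 6 were called higher (Bank1, Cd22, Cd72, Cd180, Fcrl1 and Tnfrsf13c), beside 1.11% of all tested genes called higher. None was called lower, beside 0.5% of all tested genes, while 18 of the 31 had an unadjusted p under 0.05 in edgeR, beside 17.4% of all tested genes. DESeq2 called 13 of the 31 higher and 0 lower, beside 3.2% and 2.32% of all tested genes. The median log2 fold change was 1.07 for the 31 genes and -0.06 for all tested genes. It was 1.55 for the 20 genes mostly of B cells and 0.58 for the 11 known from myeloid cells too. The log2 fold change was 2.91 (SE 0.32) for Bank1, 2.29 (SE 0.37) for Fcrl1, 2.001 (SE 0.26) for Cd22, 1.92 (SE 0.40) for Cd72, 1.77 (SE 0.36) for Tnfrsf13c and 0.93 (SE 0.18) for Cd180. The change was larger but not called for Fcer2a, at 3.22 (SE 0.84) with an adjusted p of 0.0816 in edgeR. A fit to the 6 samples of this contrast alone called Bank1 and no other of the 31 genes. In 13 of the 31 genes every cKO sample exceeded every WT sample, beside 9.75% of all tested genes, and in 1, Cd24a, every cKO sample was lower, beside 10.3%.

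**Figure D3:**
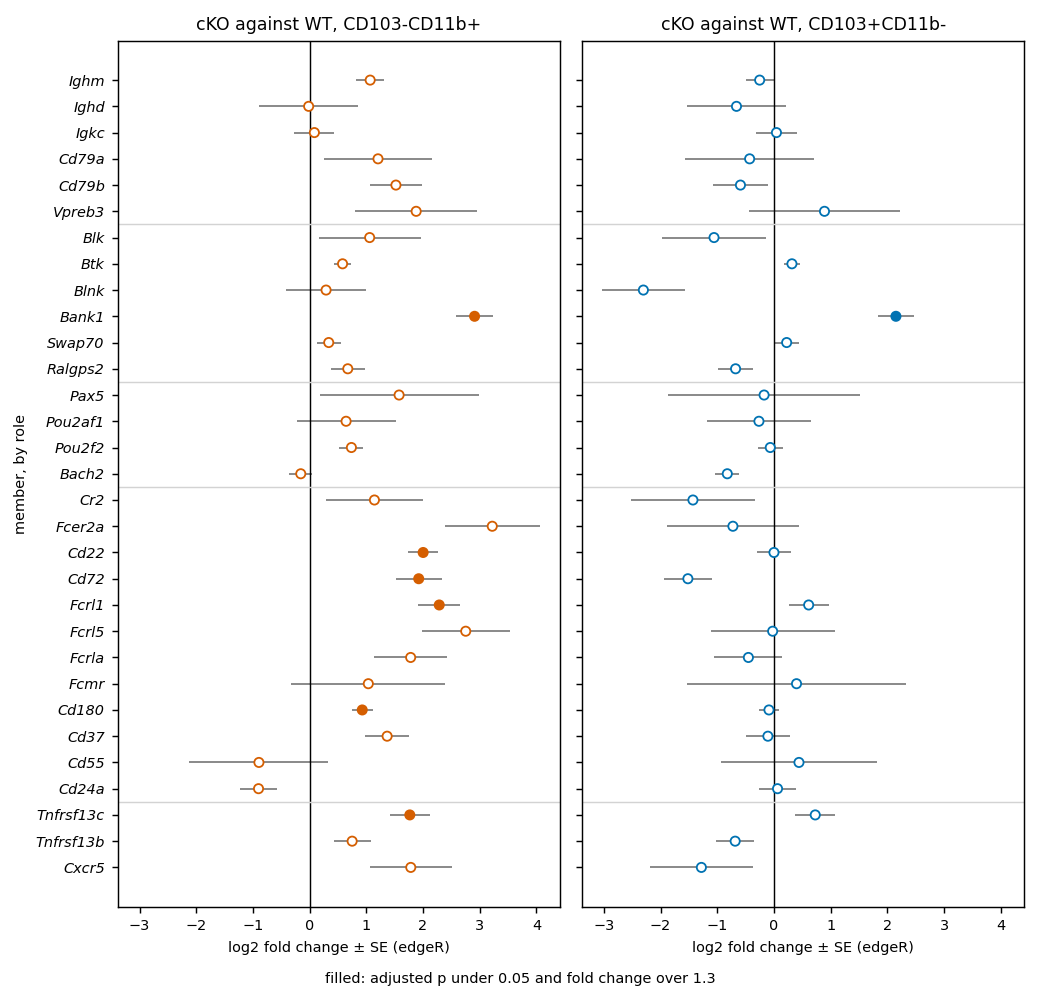
Log2 fold change of cKO against WT with its standard error for the 31 genes, in CD103-CD11b+ DCs (left) and CD103+CD11b- DCs (right). Filled points passed an adjusted p under 0.05 and a fold change over 1.3. Filled points number 6 on the left and 1, Bank1, on the right.

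Within the 3 cKO CD103-CD11b+ samples the genes did not keep a fixed ratio to one another. In 12 of the 31 genes replicate 1 was over 4 times replicate 3, against 15.1% of all tested genes. These 12 were Ighd, Cd79a, Vpreb3, Blk, Blnk, Pax5, Pou2af1, Cr2, Fcrl5, Fcrla, Fcmr and Cxcr5. In 15 the replicates 1 and 3 lay within 2 times of each other, against 66.9% of all tested genes, and these held Bank1, Cd22, Cd72, Fcrl1, Tnfrsf13c, Pou2f2 and Cd180. In the other 4 genes (Cd79b, Ralgps2, Fcer2a and Cd55) replicate 1 was 2 to 4 times replicate 3. Bank1 in replicate 3 was at 174 CPM with no count of Pax5, whereas replicate 1 held 213 CPM of Bank1 with 60.8 CPM of Pax5. Ms4a1 (CD20), a defining B-cell gene that is not among the 31, was at 91.2, 84.5 and 43.3 CPM in cKO and 7.44, 6.996 and 2.04 CPM in WT. Ms4a1 was thus high in all 3 cKO samples, as Bank1 and Cd22 were.

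The fold changes were also computed without replicate 1 of cKO CD103-CD11b+ DCs, which by construction lowers the genes in which that sample was far above the other two. Without it, 20 of the 31 log2 fold changes in that subset were positive in place of 27, and the median was 0.58. The sign turned for 7 genes, none of them called with or without that sample, which were Cd79a, Vpreb3, Blk, Blnk, Pax5, Pou2af1 and Fcmr. Cd79a went from 1.21 (SE 0.96) to -0.82 and Pax5 from 1.58 (SE 1.40) to -0.19 on the log2 scale. Bank1 was at 2.88, Cd22 at 1.83, Fcrl1 at 2.09, Cd72 at 1.93 and Fcer2a at 3.16 without that sample, each within 0.2 of its value with all samples. The genes called without it were Bank1, Cd22 and Fcrl1, 3 in place of 6. The fold changes of the 3 that lost their call stayed of similar size, with Tnfrsf13c at 1.63 and Cd180 at 0.99 beside the value of Cd72 above.

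**Figure D4:**
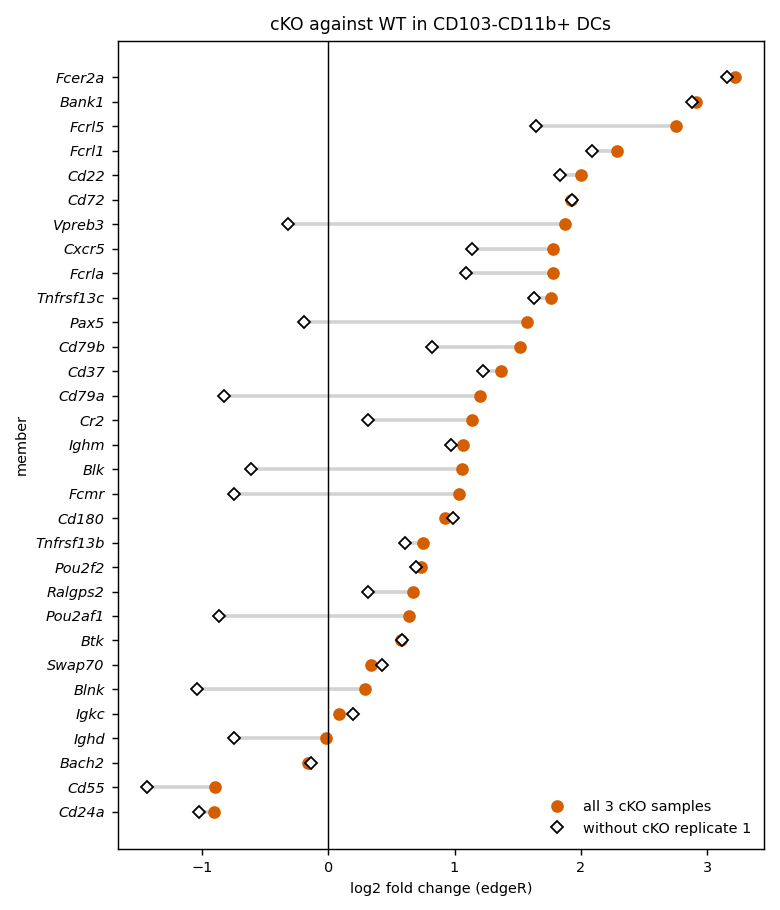
Log2 fold change of cKO against WT in CD103-CD11b+ DCs for the 31 genes, with all 3 cKO samples (circles) and without replicate 1 of the cKO group (diamonds). Diamonds fall below 0 for 11 genes, and those of Bank1, Cd22, Cd72 and Fcer2a stay within 0.2 of their circles.

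Markers of other cell types in the same samples were as follows. The summed level of the 20 genes mostly of B cells was 569, 763 and 512 CPM in WT and 1753, 1108 and 1205 CPM in cKO CD103-CD11b+ DCs. In replicate 3 of cKO most of the sum came from Ighm, Igkc and Bank1, at 427, 299 and 174 CPM, while Cd79a was at 3.57 and Pax5 at 0 CPM there. Of 12 other B-cell genes, which summed to between 576 and 869 CPM in WT and between 715 and 1107 CPM in cKO, 1, Ms4a1, was called higher. Of 12 plasma cell genes, whose sum ran from 1190 to 1541 CPM in WT and from 796 to 1811 CPM in cKO, 0 were called, and the same held for 15 T-cell, 8 plasmacytoid DC, 9 epithelial and 6 stromal genes. Plasmacytoid DC genes summed to between 764 and 1060 CPM in WT and between 709 and 946 CPM in cKO, epithelial genes to between 48.6 and 54.4 and between 16.4 and 17.96 CPM, and stromal genes to between 385 and 1073 and between 49.97 and 1262 CPM. Of 10 macrophage genes, with sums from 457 to 696 CPM in WT and from 576 to 794 CPM in cKO, Adgre1 (F4/80) was called higher. Of 6 germinal centre genes, with sums from 26.4 to 34.0 CPM in WT and from 27.4 to 44.2 CPM in cKO, none was called, and Rgs13 had no count in any of the 12 samples. Of 16 signalling genes that B cells share with other blood cells, with sums from 4173 to 5377 CPM in WT and from 5685 to 8676 CPM in cKO, Prkcb, the protein kinase C beta gene downstream of the B-cell receptor, was called higher. The part of these cells in the levels of the 31 genes was not tested.

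**Figure D5:**
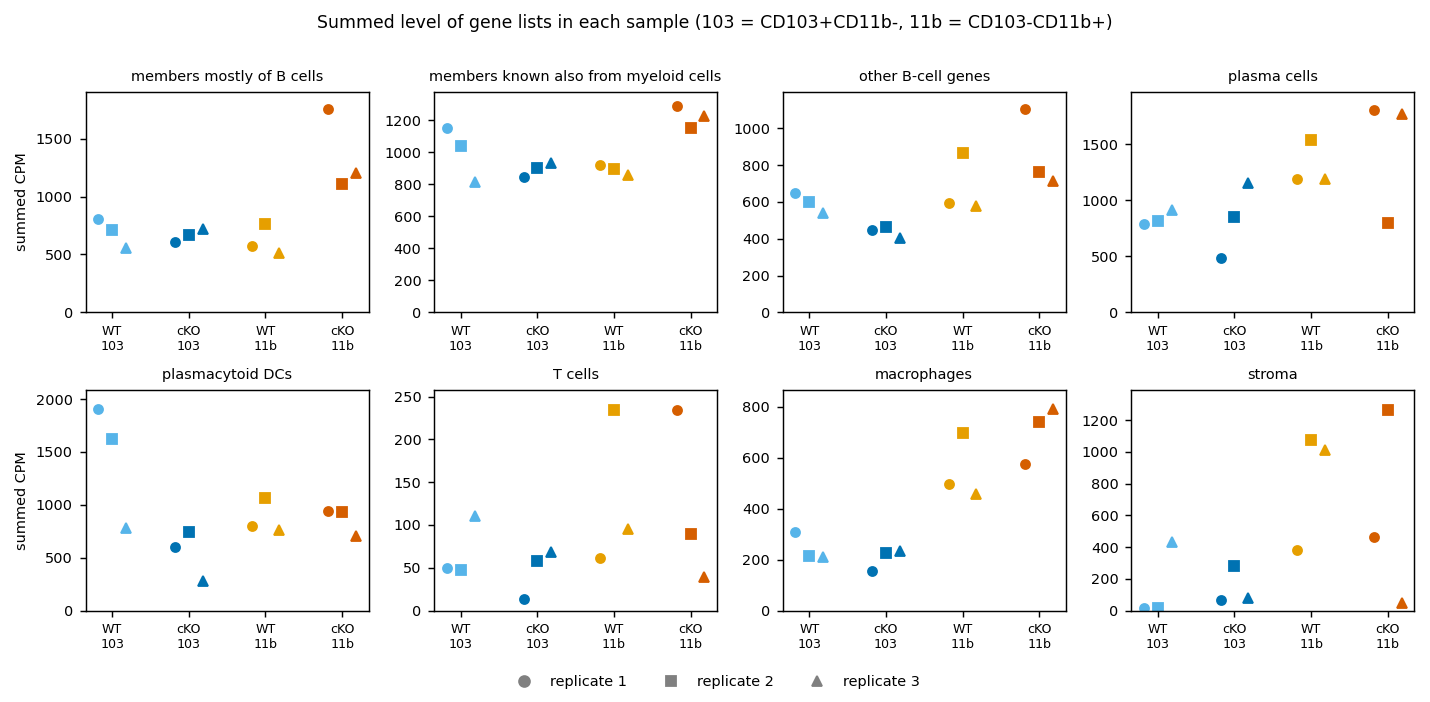
Summed level (CPM, linear axis from 0) of 8 gene lists in each sample, with 1 point per sample, its shape giving the replicate. The genes mostly of B cells sum to at least 1108 CPM in each cKO CD103-CD11b+ sample and to at most 803 CPM in the other 9 samples, whereas T-cell genes are high in replicate 2 of the WT and replicate 1 of the cKO CD103-CD11b+ samples.

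The contrast of cKO with WT in CD103+CD11b- DCs used samples that did not prompt the list, and asks whether the genes changed in that subset too. The list and the naming of Bank1 were still set with earlier results of these data known, so a call here is not independent evidence. Bank1 was called higher, with a log2 fold change of 2.15 (SE 0.32) and an adjusted p of 0.0121 (edgeR), and was higher in 3 of 3 cKO samples. It was the only one of the 31 genes called higher, beside 0.224% of all tested genes, and none was called lower, beside 0.797%. In all, 5 of the 31 had an unadjusted p under 0.05 in edgeR, beside 10.5% of all tested genes, and DESeq2 called 1 higher, beside 1.07%, and 3 lower (Cd72, Bach2 and Blnk), beside 2.11%. The median log2 fold change was -0.18 for the 31 genes and -0.02 for all tested genes. Bank1 was called under 15 of 18 alternative settings. Its adjusted p was 0.0697 without replicate 1 of WT, 0.0551 without replicate 2 of WT and 0.0554 without replicate 1 of cKO CD103+CD11b- DCs, with log2 fold changes of 1.97, 2.22 and 2.07.

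Several genes had lower values in cKO CD103+CD11b- DCs without passing the test. The log2 fold change was -2.31 (SE 0.73) for Blnk, -1.52 (SE 0.43) for Cd72 and -0.82 (SE 0.21) for Bach2, with adjusted p of 0.213, 0.152 and 0.12 in edgeR. For 5 of the 31 genes (Ighd, Blnk, Ralgps2, Bach2 and Cd72) every cKO sample was below every WT sample, beside 10.6% of all tested genes, and for 2 (Bank1 and Btk) every cKO sample was above, beside 7.51%. Blnk falls outside the rule for genes given sample by sample, like Pax5, and was added after its values were seen. It was at 143, 122 and 56.1 CPM in WT and 22.9, 33.2 and 7.82 CPM in cKO CD103+CD11b- DCs. The 8 plasmacytoid DC genes summed to 1906, 1621 and 777 CPM in these WT samples and to 599, 744 and 284 CPM in these cKO samples. Siglech, a defining gene of these cells, was at 464, 358 and 159.6 CPM in WT and 110.5, 149.9 and 17.99 CPM in cKO. None of the 8 was called, and the adjusted p of Siglech was 0.432 (edgeR). Replicate 3 was thus the lowest of its group for Blnk and for Siglech in each genotype. Among all tested genes, replicate 3 was the lowest of its group for 32.8% in WT and 43.0% in cKO. Plasmacytoid DCs are known to use Blnk and other early B-lineage genes, and the part of such cells in these values was not tested. The 6 cDC2 genes fell in part as well, with Sirpa, Irf4 and Cd209a called lower and sums of 366 to 626 CPM in WT and 84.1 to 137 CPM in cKO. Of the 12 other B-cell genes 0 were called, and their median log2 fold change was -0.92. It was -3.26 for Ccr6, a chemokine receptor, and -2.19 for Spib, a transcription factor that plasmacytoid DCs use too, with adjusted p of 0.0814 and 0.185 (edgeR). Against that median, Ms4a1 was at 5.13, 7.32 and 9.701 CPM in WT and 22.9, 13.2 and 13.3 CPM in cKO, with a log2 fold change of 1.14 (SE 0.44) and an adjusted p of 0.358 (edgeR). Of the 6 germinal centre genes S1pr2 was called higher, and of the plasma cell, T-cell, signalling, macrophage, epithelial and stromal genes none was called. The other B-cell genes summed to between 542 and 651 CPM in WT and between 404 and 464 CPM in cKO, plasma cell genes to between 790 and 914 and between 485 and 1156 CPM, and T-cell genes to between 47.8 and 110.1 and between 13.1 and 68.4 CPM.

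The subsets of WT mice were compared to see how the genes stood without the deletion. The WT CD103-CD11b+ samples were the low side of the contrast that prompted the list, so these calls are a description too. Of the 31, 3 were called higher in CD103-CD11b+ DCs (Bach2, Cd22 and Pou2f2), beside 11.8% of all tested genes, and 4 were called lower (Fcrla, Cd180, Ighm and Btk), beside 7.0%. In all, 10 of the 31 had an unadjusted p under 0.05, beside 34.3% of all tested genes, and the median log2 fold change was 0.55 for the 31 and 0.07 for all tested genes. The log2 fold change was 1.82 (SE 0.27) for Cd22, 1.61 (SE 0.21) for Bach2 and 1.56 (SE 0.22) for Pou2f2, and each was higher in 3 of 3 samples. It was -2.88 (SE 0.66) for Fcrla, -1.16 (SE 0.18) for Cd180 and -0.74 (SE 0.14) for Btk. Ighm was -0.85 (SE 0.25) with an adjusted p of 0.0365 (edgeR), and its call was lost without any of 7 of the 12 samples, with adjusted p up to 0.139 when replicate 1 of WT CD103+CD11b- DCs was left out. Leaving out that same sample took the adjusted p of Fcrla to 0.0527. The plasmacytoid DC genes Siglech, Cox6a2, Pacsin1 and Ly6c2 were called lower in CD103-CD11b+ DCs as well, and Adgre1, Fcgr1, C1qa, C1qb, C1qc and Cd163 were among the macrophage genes called higher. Of the 12 other B-cell genes, Ebf1 and Siglecg were called higher and Ly6d and Hvcn1 lower. The plasma cell gene Ighg2b and the epithelial genes Vil1 and Krt8 were called higher too. Without overlap between the subsets, 5 of the 31 genes were higher in CD103-CD11b+ DCs and 5 lower, beside 21.4% and 16.7% of all tested genes.

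In cKO mice the same comparison holds the samples that prompted the list and is a description. Of the 31 genes 14 were called higher in CD103-CD11b+ DCs, beside 9.26% of all tested genes, and 2 (Btk and Cd24a) lower, beside 6.81%. The 14 were Cd79a, Cd79b, Bank1, Ralgps2, Pou2f2, Bach2, Cr2, Fcer2a, Cd22, Cd72, Fcrl1, Fcrl5, Tnfrsf13b and Cxcr5. With the replicate block the call of Cd79a was lost, with an adjusted p of 0.124 (edgeR), and Pax5, Cd37 and Tnfrsf13c were called as well. The count was 9 without replicate 1 of cKO CD103-CD11b+ DCs and 9 without replicate 3 of cKO CD103+CD11b- DCs. The log2 difference between the subsets was 3.82 (SE 0.29) for Cd22 in cKO, where it was 1.82 (SE 0.27) in WT, 3.76 (SE 0.45) for Cd72 in cKO and 0.32 (SE 0.40) in WT, and 1.34 (SE 0.30) for Bank1 in cKO and 0.58 (SE 0.32) in WT. Markers of other cells differed in this comparison as well. Of the 12 other B-cell genes 5 were called higher in CD103-CD11b+ DCs (Ms4a1, Siglecg, Iglc1, Ccr6 and Hvcn1), of the 10 macrophage genes 7, and of the 15 T-cell genes 1, Thy1. Of the 12 plasma cell genes Ighg2b and of the 8 plasmacytoid DC genes Runx2 were called higher too. Their part in the values of the 31 genes was not tested. All 3 cKO CD103-CD11b+ samples were above the other 9 samples for 8 of the 31 genes (Bank1, Pou2f2, Fcer2a, Cd22, Cd72, Fcrl1, Fcrl5 and Cxcr5), beside 3.34% of all tested genes.

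The genotype effects in the subsets were also set against each other. The difference, CD103-CD11b+ minus CD103+CD11b-, was called for 2 of the 31 genes, beside 0.554% of all tested genes called in that direction, and for none in the other, beside 0.0972%. These were Cd72, at 3.44 (SE 0.59) with an adjusted p of 0.0332, and Cd22, at 2.002 (SE 0.38) with an adjusted p of 0.0474 (edgeR). For Bank1 the difference was 0.76 (SE 0.43) with an adjusted p of 0.593 (edgeR), so a larger effect in 1 subset was not shown for it. The difference shares the samples that prompted the list and is a description. Without replicate 1 of cKO CD103-CD11b+ DCs 0 of the 31 genes were called, and leaving out each sample in turn gave 0 or 1.

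The promoters of the 4 genes mostly of B cells with the highest mean level that have an entry in the RefSeq promoter table (GRCm38.p6) are shown, since Bank1 and Cd22 carry the results above, and Ralgps2 and Fcrla stand beside them as genes that were called between the genotypes in neither subset. Each runs 5′ to 3′ on the gene's own strand from 250 bases before to 50 bases after the annotated start, and capitals mark a match to the Ebf motif. Bank1 is at chr3:136326017-136326316, Cd22 at chr7:30878979-30879278, Ralgps2 at chr1:156939577-156939876 and Fcrla at chr1:170927534-170927833, all on the minus strand.
Bank1: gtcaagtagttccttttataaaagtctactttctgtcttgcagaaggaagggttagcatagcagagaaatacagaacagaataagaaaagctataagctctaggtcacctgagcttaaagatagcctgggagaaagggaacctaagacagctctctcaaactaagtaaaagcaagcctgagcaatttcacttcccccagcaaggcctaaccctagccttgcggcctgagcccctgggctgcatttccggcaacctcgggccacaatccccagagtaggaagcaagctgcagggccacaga
Cd22: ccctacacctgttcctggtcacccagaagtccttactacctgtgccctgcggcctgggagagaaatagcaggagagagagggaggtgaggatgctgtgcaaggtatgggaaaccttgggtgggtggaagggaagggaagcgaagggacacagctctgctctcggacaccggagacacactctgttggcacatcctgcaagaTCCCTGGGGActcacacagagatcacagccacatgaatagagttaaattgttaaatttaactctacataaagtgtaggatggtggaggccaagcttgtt
Ralgps2: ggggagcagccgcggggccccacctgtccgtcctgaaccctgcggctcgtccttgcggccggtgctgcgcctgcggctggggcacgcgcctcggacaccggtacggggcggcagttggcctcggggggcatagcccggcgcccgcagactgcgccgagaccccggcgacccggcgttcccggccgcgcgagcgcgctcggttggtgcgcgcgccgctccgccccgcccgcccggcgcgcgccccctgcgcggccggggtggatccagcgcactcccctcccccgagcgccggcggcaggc
Fcrla: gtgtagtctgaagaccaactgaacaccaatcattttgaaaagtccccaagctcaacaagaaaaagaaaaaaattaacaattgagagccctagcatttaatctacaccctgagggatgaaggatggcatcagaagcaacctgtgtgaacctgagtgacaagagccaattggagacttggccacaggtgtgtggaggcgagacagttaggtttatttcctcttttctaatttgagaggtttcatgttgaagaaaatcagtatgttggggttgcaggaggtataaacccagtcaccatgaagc
Letters were searched on both strands for the octamer ATGCAAAT, for TGTGGT, a core that Runx proteins bind, and for the palindrome of early B-cell factor (Ebf), which is TCCC and GGGA with any 2 bases between them. In these 4 windows the single match was the Ebf palindrome in Cd22. Over 28 promoters of 24 of the 31 genes, the octamer was found in 2 (7.14%, Blnk and Vpreb3), the Runx core in 6 (21.4%, Fcer2a, Fcrl5, Pou2f2, Swap70, Tnfrsf13c and Vpreb3) and the Ebf palindrome in 1 (3.57%, Cd22). Over all 32851 promoters of the table the shares were 1.74%, 16.8% and 0.904%. The Ralgps2 window was 81.7% G and C, against 48.7% in Bank1, 52.3% in Cd22 and 42.7% in Fcrla, with a median of 52.7% over all promoters. A match of letters is a description of the window and not a bound site.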

How the data were processed

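RNA-seq counts of 12 samples in 4 groups were used, and the sample titles gave each sample's genotype and subset. Per the study's methods and processing notes, total RNA of few sorted cells was amplified (RamDA-seq), and reads were trimmed with Trim Galore, mapped with STAR 2.7 to mm10 (GRCm38), cleared of duplicates and of low mapping quality, and counted with HTSeq without strand. The authors deposited these raw counts per gene without normalization. PCR without molecular identifiers means that counts and floors carry counting error only.

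The 31 genes, the other lists and the rules for naming genes were chosen with earlier results of these data known, and none of the lists is independent evidence. Genes that reached 5 counts in 1 or more samples were normalized by TMM and fitted in 1 model of the 4 groups with edgeR 4.0.16 (quasi-likelihood F-test, R 4.3.3, Benjamini-Hochberg over all 20580 genes), after a check on simulated data. Given sample by sample were the 2 genes with the highest mean CPM of each role, every gene called in any contrast, and Bank1. Of the 31 genes, 11 did not reach 5 counts in every sample. Symbols, positions and exon lengths came from GENCODE M21. The counter's 5 summary lines were dropped. Replicates of a group differed by more than sampling noise, with a chi-square per degree of freedom of 2.46 or more for every pair. Whether samples share a mouse through their number is not stated. Deviations of same-numbered samples from their group means were correlated, and every pair exceeded 0.1 (lowest 0.18) only between the cKO subsets, so the numbers were taken to pair those samples alone. Replicates 2 of WT and cKO CD103-CD11b+ DCs, which are different mice, correlated at 0.535, so the correlation alone does not show shared mice. Alternatives were RLE normalization, DESeq2 1.42.0, other filters, no fold change limit, a replicate block, the compared groups alone and leaving out each sample. Plots were made with matplotlib 3.10.9. Some genes of the other lists are not reported here by name.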

Additional observations from a re-analysis of the deposited data

Results flagged for a closer look

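The genotype effect on Cd22 differed between the subsets, by 2.002 on the log2 scale (CD103-CD11b+ minus CD103+CD11b-, SE 0.38, adjusted p = 0.0474, edgeR). The cKO samples exceeded the WT samples in 3 of 3 cases in CD103-CD11b+ DCs and overlapped with them in CD103+CD11b- DCs. The call was kept in 6 of 17 alternatives, over which the adjusted p ranged from 0.000796 to 0.138.

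The genotype effect on Cd72 differed by 3.44 (SE 0.59, adjusted p = 0.0332, edgeR), with higher values in 3 of 3 cKO samples in CD103-CD11b+ DCs and lower values in 3 of 3 in CD103+CD11b- DCs. The call was kept in 9 of 17 alternatives, over which the adjusted p ranged from 4.42e-06 to 0.1. The CD103-CD11b+ samples in these differences are those from which the genes were chosen.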

How the results depend on the processing

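For the 31 genes, the count called higher in cKO CD103-CD11b+ DCs was 6, and 13 with DESeq2, 11 with the replicate block (which was not shown to pair these samples), 1 in a fit to the compared groups alone and 2 to 8 with 1 sample left out. It was 3 without replicate 2 of WT CD103+CD11b-, cKO CD103+CD11b- or WT CD103-CD11b+ DCs or without replicate 1 of cKO CD103-CD11b+ DCs, and 2 without replicate 3 of WT CD103-CD11b+ DCs. In CD103+CD11b- DCs the count called higher was 1, or 0 to 1 with 1 sample left out, and the count called lower was 0, but 3 with DESeq2 and 2 with the replicate block (Blnk and Cd72). Between the WT subsets the count called lower was 4, or 2 to 5 with 1 sample left out, the 2 without replicate 1 of WT CD103+CD11b- DCs. Between the cKO subsets, whose numbers were taken to pair, the replicate block gave 16 higher and 2 lower in place of 14 and 2. Cd79a was lost and Pax5, Cd37 and Tnfrsf13c were gained. The count called higher there was 9 to 15 with 1 sample left out, and the count called lower was 1 without a filter beyond 1 count, 0 in a fit to the compared groups alone and 0 to 2 with 1 sample left out. The difference of the genotype effects was called for 4 genes with DESeq2, 6 with the replicate block and 0 to 1 with 1 sample left out, in place of 2. No fit to the compared groups alone gives that difference. No call turned its direction, RLE normalization moved levels by a factor of 0.974 to 1.04 and the limit on fold change moved no count by over 1.5 times. The cause of these differences was not tested. At 3 samples per group and this depth, genes with few counts (Vpreb3, Fcmr, Cd55, Cr2, Cxcr5) have standard errors too wide to show changes of a few fold. In cKO against WT CD103-CD11b+ DCs the standard errors of Pax5 (1.40), Cd79a (0.96), Blk (0.90) and Pou2af1 (0.87) were wide too. The lack of a call for these genes does not show an unchanged level.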
